A study of Mus musculus with 2 samples.

Results

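Cxcl1, Cxcl2, Cxcl3, Cxcl5 and Cxcr2 were followed through 2 single-cell RNA libraries of mouse subcutaneous fibrosarcomas, tumours of connective tissue grown from implanted syngeneic cells. All 5 members were taken by gene symbol from the 31053 genes of the count tables. Both libraries came from wild type C57BL/6 mice. The library titled Blood carries a treatment label of PBS injection and the library titled Control a treatment label of erythrocyte injection, so titles and treatments contradict each other. The libraries are named by title here and every ratio is titled Blood over titled Control. Because of the contradiction, a direction says which title was higher and not what injected erythrocytes did. The study asked what autologous erythrocytes placed in the tumour do to its cells. Tumours had been digested with collagenase and DNase and their red cells lysed. Neither the mice's ages nor how many were used for each library is stated in the labels. With 1 library per title no difference had a replicate check and no test was made. Intervals are exact 95% intervals that cover counting error only.

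Neutrophils are called into tissue by CXC chemokines that carry a glutamate-leucine-arginine motif before their first cysteines. In the mouse, CXCL1, CXCL2, CXCL3 and CXCL5 are such ligands, and they act through CXCR2, a receptor coupled to inhibitory G proteins that drives neutrophil migration. Macrophages, stromal cells and neutrophils themselves can make the ligands, commonly after inflammatory signals that engage the transcription factor NF-kB.

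The ligand genes lie on the plus strand of chromosome 5 within 147 kb that hold 7 protein-coding genes (GENCODE M21, GRCm38). In order they are Cxcl5 (chr5:90759360-90761624), Cxcl3 (chr5:90786103-90789600), Cxcl1 (chr5:90891241-90893115) and Cxcl2 (chr5:90903871-90905938), each with 4 exons in its principal transcript. The platelet chemokine genes Ppbp and Pf4 and the lung chemokine gene Cxcl15 lie in the same stretch. Cxcr2 is on chromosome 1 (chr1:74153989-74161246, plus strand, 3 exons). The counted reads come from transcript ends. Cxcl2 and Cxcl3 transcripts share an identical run of 110 bases, but their last 500 bases share at most 16 in a row, and no other pair of members shared more than 14 there.

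The promoters of Cxcl1, Cxcl2 and Cxcl3 are shown because these are the ligands with most UMIs and they hold the same pair of motifs. Each line gives the 100 bases before the earlier of the annotated RefSeq and GENCODE starts (RefSeq sequence, GRCm38.p6, plus strand). Capitals mark, in order, a match to the NF-kB consensus and a TATA-type motif (ATAAAAG).
Cxcl1, chr5:90891141-90891240: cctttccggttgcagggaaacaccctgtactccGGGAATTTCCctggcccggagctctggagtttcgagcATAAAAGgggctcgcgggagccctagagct
Cxcl2, chr5:90903771-90903870: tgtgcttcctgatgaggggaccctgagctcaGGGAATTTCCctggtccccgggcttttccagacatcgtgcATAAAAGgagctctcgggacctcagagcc
Cxcl3, chr5:90786001-90786100: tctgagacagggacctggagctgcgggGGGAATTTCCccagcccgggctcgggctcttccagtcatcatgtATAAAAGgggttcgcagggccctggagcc
The NF-kB consensus match begins 67, 69 and 73 bases before the start in Cxcl1, Cxcl2 and Cxcl3, and the TATA-type motif 30, 29 and 29 bases before it. Searched on both strands in the 100 bases before the start of all 32851 RefSeq promoter windows, the NF-kB consensus was matched in 494 windows, the TATA-type letters in 727 (2.21%), and both in 11 windows (0.0335%), Cxcl1, Cxcl2 and Cxcl3 among them. The consensus reads much the same on both strands, so each of the 3 promoters has 1 match on each strand. A match describes letters and is not a measured binding site. The Cxcr2 window held neither motif.

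The deposited counts sum to 115066023 UMIs in 12057 barcodes titled Blood and to 115272096 UMIs in 9475 barcodes titled Control. After filters and doublet removal 11341 and 8823 cells remained, with medians of 6577 UMIs per cell in the library titled Blood and 9245 in the library titled Control. Cells were clustered without the 5 members and 8 related chemokine genes, so member levels did not shape the cell classes. Classes were named from markers that hold no member. The neutrophil-like class had all 15 of its markers at 10 CPM (UMIs per 1000000 UMIs of the class) or more in both libraries, and it made up 15.6% of cells titled Blood and 1.46% of cells titled Control. Of the cell barcodes, 349 occurred in both libraries, and 307 of the 339 kept in both (90.6%) fell in the same class, against 30.6% from the class shares alone. The copy with fewer UMIs had a median of 773 UMIs in the library titled Blood and 834 in the library titled Control, and 85 of 158 cells titled Blood and 48 of 155 titled Control in a low-UMI mesenchymal-like cluster were such copies. How barcodes came to be in both libraries was not tested. Ligand levels of the mesenchymal-like class are given with and without the low copies, while its shares, ratios and cluster levels are printed with them. Without the low copies the class falls from 212 to 127 cells titled Blood and from 257 to 209 titled Control.

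Across all kept cells, the receptor and most ligands had more UMIs in the library titled Blood. Cxcl3 stood at 343 CPM in the library titled Blood (95% interval 339 to 346), against 38.3 CPM in the library titled Control (37.1 to 39.5), 8.95 times as high. Cxcl2 stood at 1842 CPM titled Blood and 866 CPM titled Control, a ratio of 2.13 (2.11 to 2.14). Cxcr2 stood at 29.1 CPM titled Blood and 3.66 CPM titled Control, 7.93 times as high (7.15 to 8.81). Cxcl5 was rare, with 3.41 CPM titled Blood and 0.611 CPM titled Control. Cxcl1 did not differ beyond counting error, at 13.9 CPM in both libraries (ratio 0.998, 0.929 to 1.07). These totals mix the level within each class with the number of cells of each class.

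**Figure D1:**
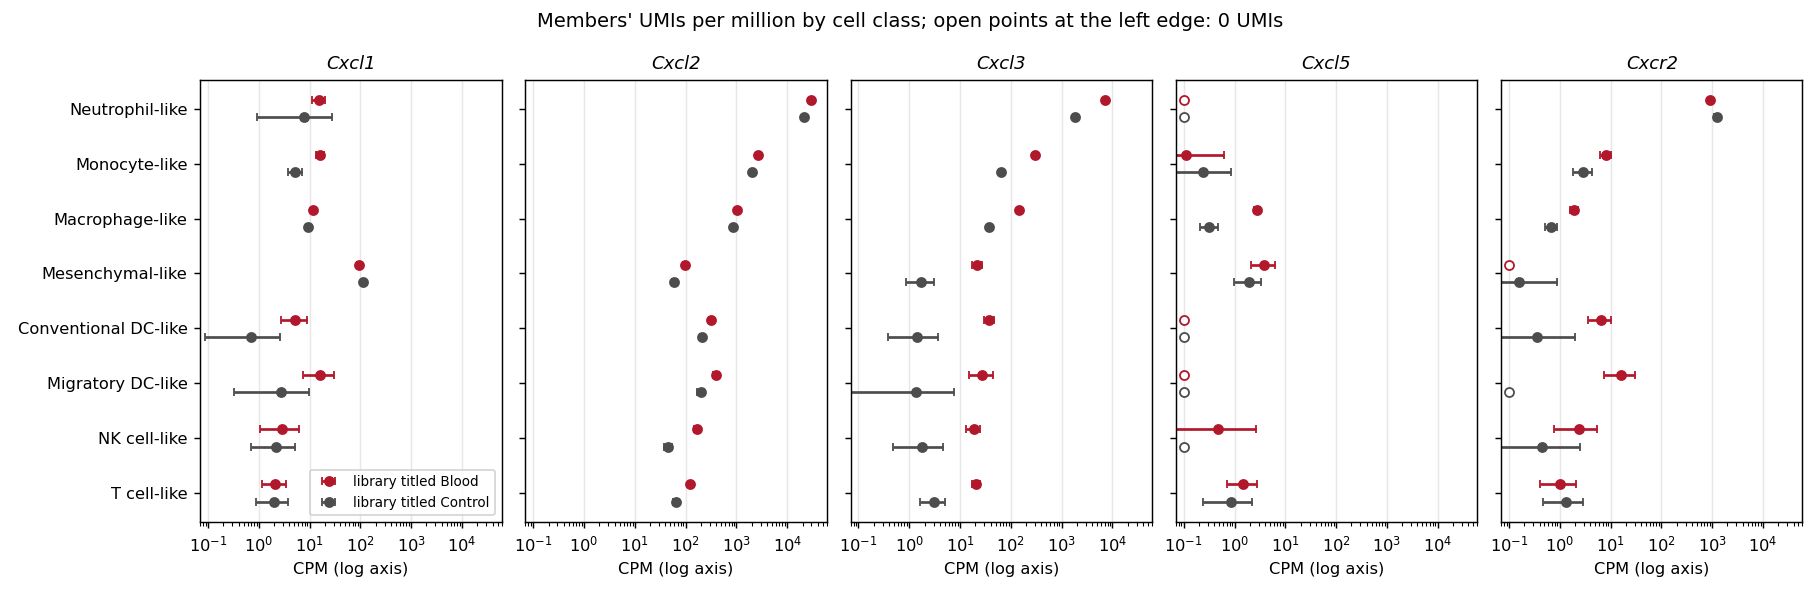
UMIs per 1000000 UMIs of the class (CPM, log axis) of each member in 8 cell classes, with exact 95% Poisson intervals, library titled Blood above library titled Control. Cxcl2, Cxcl3 and Cxcr2 peak in neutrophil-like cells in both libraries, Cxcl1 peaks in mesenchymal-like cells, and Cxcl5 is at 0 in neutrophil-like cells.

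Cxcr2 was a neutrophil gene in these tumours. Neutrophil-like cells, which were 15.6% of cells titled Blood and 1.46% of cells titled Control, held 91.4% of Cxcr2 UMIs titled Blood (2930 of 3207) and 78.2% titled Control (319 of 408). Their Cxcr2 level was 914 CPM in the library titled Blood (881 to 947) and 1228 CPM in the library titled Control (1097 to 1371), a ratio of 0.744 (0.663 to 0.838). At 1000 UMIs per cell, which left out 211 cells titled Blood and 5 titled Control, Cxcr2 was seen in 46.3% of neutrophil-like cells titled Blood (43.8 to 48.8) and 61.3% titled Control (52.1 to 69.9). Without thinning the shares were 54.5% and 66.7%. T cell-like cells, a type taken as background, showed Cxcr2 in 0.0792% of thinned cells titled Blood and 0 of 796 titled Control, which allows a share of up to 0.462%. T cell-like cells were the deeper ones, with medians of 4810 UMIs titled Blood and 5039.5 titled Control, against 1747 and 1962 in neutrophil-like cells.

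Outside neutrophils, receptor UMIs were few. Macrophage-like cells had 148 Cxcr2 UMIs titled Blood (1.92 CPM) and 54 titled Control (0.683 CPM), and monocyte-like cells 71 and 24 (7.97 and 2.85 CPM). To set these against neutrophil RNA in other droplets, Cxcr2 was expected from the S100a8 and S100a9 UMIs of each class at the ratio found in neutrophil-like cells, 1.94 Cxcr2 UMIs per 100 titled Blood and 2.22 titled Control. S100a8 and S100a9 code for calprotectin, the most abundant protein of neutrophil cytosol. At that ratio 67.4% of macrophage-like Cxcr2 UMIs titled Blood and 37.1% titled Control would be matched. In T cell-like cells, with 7 Cxcr2 UMIs titled Blood and 6 titled Control, the shares were 124% and 4.44%. Macrophage-like cells with no S100a8 or S100a9 UMI had 0.821 Cxcr2 CPM titled Blood. In the library titled Control such cells had 0.512 Cxcr2 CPM. The matched share depends on the genes taken. Titled Blood, Retnlg had 116 UMIs in macrophage-like and 2200 in neutrophil-like cells and G0s2 517 and 11818, beside 148 and 2930 for Cxcr2. Titled Control, Retnlg had 10 and 388 and G0s2 126 and 1863, beside 54 and 319 for Cxcr2. The part of neutrophil RNA in these receptor levels was not tested further.

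Neutrophil-like cells also had the highest Cxcl2 and Cxcl3 levels of all classes. Cxcl2 stood at 28809.9 CPM in the library titled Blood (28624 to 28996) and 21698 CPM in the library titled Control (21135 to 22272), a ratio of 1.33 (1.29 to 1.36). The median neutrophil-like cell held 37 Cxcl2 UMIs titled Blood and 26 titled Control, and Cxcl2 was detected in 97.5% of these cells titled Blood and 95.3% titled Control. At 1000 UMIs per cell Cxcl2 was seen in 96.7% of neutrophil-like cells titled Blood and 96.0% titled Control, against 8.64% and 3.52% of T cell-like cells. Cxcl3 differed more: 7112 CPM titled Blood (7020.0 to 7205) and 1860 CPM titled Control (1697 to 2033), a ratio of 3.82 (3.49 to 4.19). At 1000 UMIs per cell Cxcl3 was seen in 66.3% of neutrophil-like cells titled Blood (63.9 to 68.7) and 24.2% titled Control (17 to 32.7), and in T cell-like cells in 1.66% titled Blood and 0.126% titled Control. Without thinning, Cxcl3 was detected in 70.8% of neutrophil-like cells titled Blood and 30.2% titled Control. Cxcl1 was low in this class, at 48 UMIs titled Blood and 2 titled Control (15 and 7.70 CPM). Cxcl5 had 0 UMIs in 1773 neutrophil-like cells titled Blood and 0 in 129 titled Control, which allows a level of up to 0.935 CPM titled Blood and 11.5 CPM titled Control (3 counts over the class). Macrophage marker RNA was present in the class at 1556 summed CPM titled Blood and 1297 titled Control over 12 markers, of which Mertk was at 0 in the library titled Control, and its part in the ligand levels was not tested.

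The neutrophil-like class held 2 sub-clusters at a finer resolution, again made without the members. One was led by Cxcl10, Tnfaip2, Hp, Ltb and Lrg1 and held 1050 cells titled Blood and 108 titled Control. The other was led by Inhba, Ifrd1, Hspa1b, Spp1 and Syne1 and held 723 cells titled Blood and 21 titled Control. Receptor and ligand ran opposite ways between them. Cxcr2 stood at 260.1 CPM titled Blood and 154 CPM titled Control in the Inhba-led cells, against 1346 and 1418 CPM in the Cxcl10-led cells. The Inhba-led value titled Control rests on 6 Cxcr2 UMIs in 2 of 21 cells (56.5 to 335 CPM). Cxcl2 stood at 37917 CPM titled Blood and 33533 CPM titled Control in the Inhba-led cells, against 22877 and 19611 CPM in the Cxcl10-led cells.

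Within a sub-cluster, the receptor no longer differed between the libraries beyond counting error, with ratios of 0.949 (0.844 to 1.07) in Cxcl10-led and 1.69 (0.768 to 4.63) in Inhba-led cells. Giving both sub-clusters equal weight turned the log2 ratio of Cxcr2 from -0.42 to 0.03. Cxcl3 stayed higher in the library titled Blood in both. In Cxcl10-led cells it stood at 4386 CPM titled Blood and 1775 CPM titled Control (2.47, 2.23 to 2.74), and in Inhba-led cells at 11279.8 CPM titled Blood and 2337 CPM titled Control (4.83, 3.93 to 6.00). The Inhba-led group rests on 21 cells titled Control, in which Cxcl3 had 91 UMIs and Cxcr2 6.

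**Figure D2:**
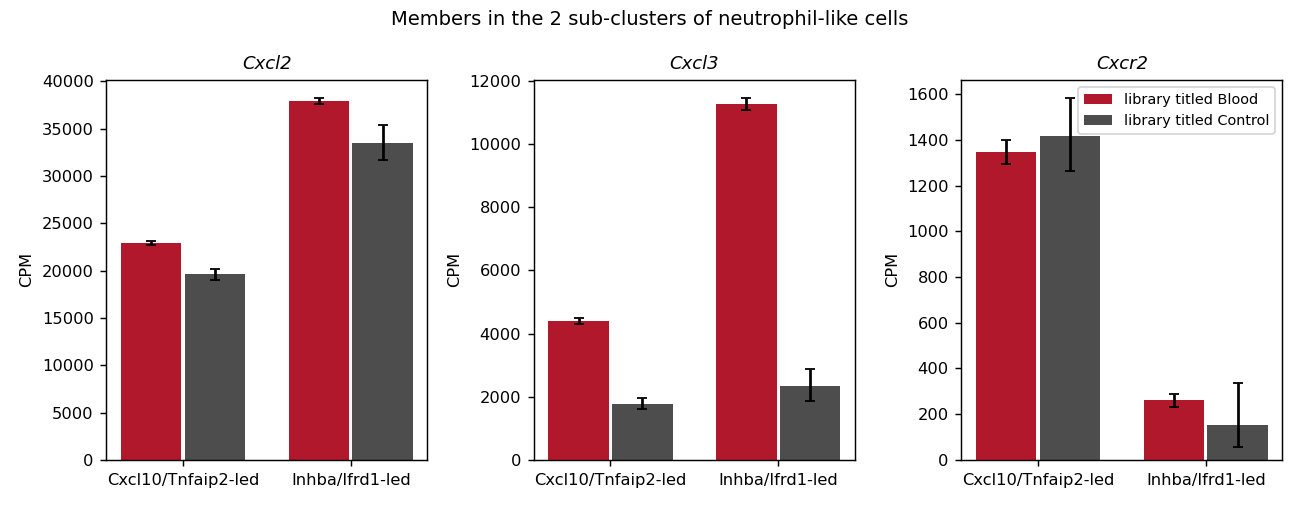
Level (CPM) of Cxcl2, Cxcl3 and Cxcr2 in the 2 sub-clusters of neutrophil-like cells, library titled Blood left of library titled Control, with exact 95% Poisson intervals as bars. Cxcr2 is high in Cxcl10-led and low in Inhba-led cells in both libraries, and Cxcl3 is higher in the library titled Blood within each sub-cluster.

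The same opposition appeared cell by cell in the library titled Blood. Among neutrophil-like cells thinned to 1000 UMIs, the 723 with a Cxcr2 UMI held a mean of 24.5 Cxcl2 UMIs and the 839 without one 31.7, and Cxcl3 was seen in 58.5% and 73.1% of them. In the library titled Control the 76 cells with a Cxcr2 UMI held 16.5 Cxcl2 UMIs and the 48 without one 25.2, whereas Cxcl3 was seen in 25% and 22.9%. Cxcl2 was seen in 95.6% of cells with a Cxcr2 UMI and 97.7% of cells without one titled Blood, and in 94.7% and 97.9% titled Control.

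Macrophages were the other large source of ligand. Macrophage-like cells, 47.7% of cells titled Blood and 57.1% of cells titled Control, held 38.8% of Cxcl2 UMIs titled Blood and 70.1% titled Control, and 29.9% and 70.3% of Cxcl3 UMIs. Neutrophil-like cells held 45.4% of Cxcl2 titled Blood and 5.85% titled Control, and 60.3% and 11.3% of Cxcl3. The leading source of both ligands was therefore neutrophil-like in one library and macrophage-like in the other. Monocyte-like cells added 11.7% of Cxcl2 titled Blood and 17.8% titled Control.

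**Figure D3:**
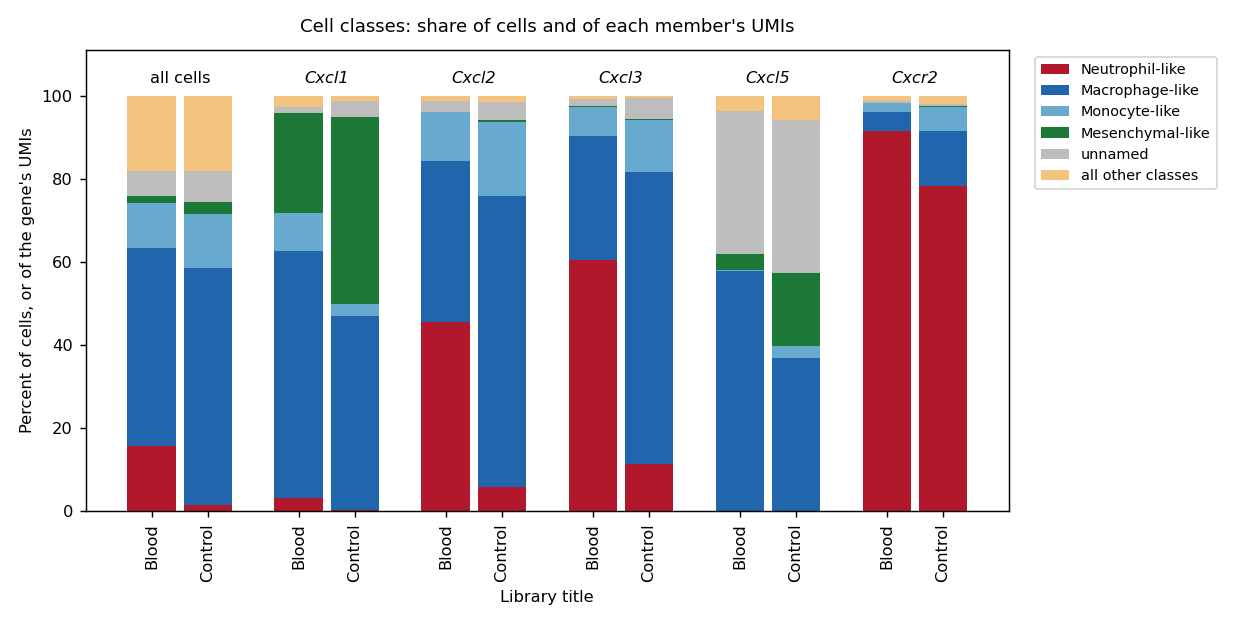
Share (percent) of all kept cells and of each member's UMIs that falls in each class, library titled Blood left of library titled Control. Neutrophil-like cells hold 45.4% of Cxcl2 and 60.3% of Cxcl3 titled Blood, against 5.85% and 11.3% titled Control.

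Within macrophage-like cells Cxcl3 was the 1 of 3 measured members to pass 1.5-fold, Cxcl5 and Cxcr2 being under 10 CPM in both libraries. Cxcl3 stood at 146 CPM titled Blood (144 to 149) and 37.9 CPM titled Control (36.6 to 39.3), a ratio of 3.86 (3.71 to 4.02). With each library clustered on its own, 306 cells titled Blood led by Cxcl3, Ppbp, Mmp8, Cd36, Mt2 and Hmox1 got no name and were not in the class, and the log2 ratio fell to 0.69, against 1.82. Of all genes tested in this class 0.488% were at least 1.5-fold higher and 0.899% at least 1.5-fold lower in the library titled Blood, on the log2(CPM + 5) scale. Cxcl2 stood at 1022 CPM titled Blood and 855 CPM titled Control (1.20, 1.18 to 1.21), and Cxcl1 at 11.8 and 9.21 CPM (1.28, 1.16 to 1.41). Both ratios were small, and the Cxcl1 ratio lost most of its size when the clusters were given equal weight (log2 0.09). At 1000 UMIs per cell, which left out 224 cells titled Blood and 95 titled Control, Cxcl3 was seen in 8.78% of macrophage-like cells titled Blood and 1.92% titled Control, and in T cell-like cells in 1.66% and 0.126%. Unthinned, those macrophage-like shares were 25.9% and 7.46%.

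Cxcl3 RNA of the class lay mostly in 1 cluster. The tenth of macrophage-like cells with most UMIs of the gene held 49.8% of Cxcl2 titled Blood and 54.7% titled Control, and 91.6% of Cxcl3 titled Blood. In the library titled Control 7.46% of these cells had any Cxcl3 UMI, so the same share is not informative there. The cluster led by Pf4, Mmp12, a macrophage elastase, and Hmox1, the haem-degrading oxygenase, here called Mmp12-led, made up 22.8% of macrophage-like cells titled Blood and 11.1% titled Control. It held 84.4% of the class's Cxcl3 UMIs titled Blood and 80.7% titled Control. Cxcl3 there stood at 713 CPM titled Blood (699 to 728) and 342 CPM titled Control (328 to 356), a ratio of 2.09 (2.0 to 2.18), against 67.1 CPM or less in each other macrophage-like cluster of either library. Cxcl2 in the same cluster stood at 2358 CPM titled Blood and 2324 CPM titled Control and did not differ beyond counting error (1.01, 0.996 to 1.03). In that cluster the Cxcl3 ratio is thus smaller than in the class, whose ratio also holds the cluster's larger share of cells titled Blood.

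The other macrophage-like clusters, led by Cxcl9, Ifit3, Mki67, Ccl8, H2-Eb1 and Zmynd15, all had more Cxcl3 in the library titled Blood, with ratios from 1.95 in the Cxcl9-led to 7.33 in the Zmynd15-led cluster. Their levels were low, between 20.9 and 67.1 CPM titled Blood and between 2.89 and 19.0 CPM titled Control. T cell-like cells, taken as background, stood at 20.7 CPM titled Blood and 3.04 CPM titled Control, a ratio of 6.81 (3.92 to 12.8). The lowest of these clusters were thus near background, and its part in their ratios was not tested. Cxcl2 was spread more evenly among them, from 307 CPM titled Blood and 209 CPM titled Control in the Zmynd15-led cluster to 1059.7 and 965 CPM in the H2-Eb1-led cluster, with ratios between 1.04 and 1.47.

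**Figure D4:**
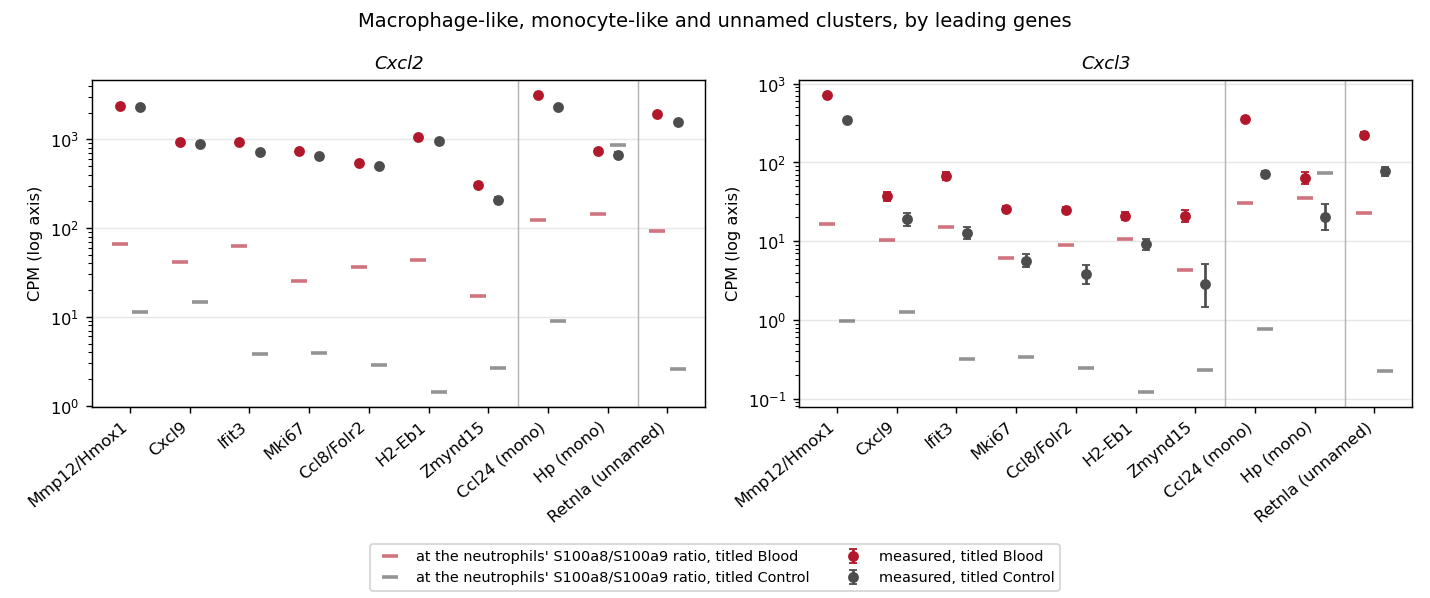
Cxcl2 and Cxcl3 levels (CPM, log axis) in macrophage-like, monocyte-like (mono) and unnamed clusters named by leading genes, library titled Blood left of library titled Control. Points are measured values with exact 95% Poisson intervals, and dashes give the level that the cluster's S100a8 and S100a9 UMIs bring at the neutrophil ratio. Cxcl3 in the Mmp12-led cluster is 713 CPM titled Blood against 16.3 CPM at that ratio.

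By the S100a8 and S100a9 ratio, neutrophil RNA would match a small share of the high ligand levels and a larger share of the low ones. In neutrophil-like cells there were 61.3 Cxcl2 and 15.1 Cxcl3 UMIs per 100 S100a8 and S100a9 UMIs titled Blood, and 39.2 and 3.36 titled Control. At that ratio, 6.86% of macrophage-like Cxcl3 titled Blood and 1.01% titled Control would be matched, and 2.29% and 0.288% in the Mmp12-led cluster. The measure counts every S100a8 and S100a9 UMI as neutrophil RNA. In the Mmp12-led cluster titled Control S100a8 had 199 UMIs and S100a9 8, against 7175 and 7201 in neutrophil-like cells. Whether macrophages made some of the S100a8 was not tested. Cxcl2 in macrophage-like cells would be matched by 3.98% titled Blood and 0.525% titled Control. In the H2-Eb1-led cluster the matched share of Cxcl3 was 51.3% titled Blood and 1.34% titled Control, and the ratio of what remained was close to even (10.1 against 8.99 CPM). Macrophage-like cells with no S100a8 or S100a9 UMI still had 125 Cxcl3 CPM titled Blood and 28.8 CPM titled Control. Their log2 ratio was 1.94, against 1.82 in all macrophage-like cells. Macrophage-like cells with such a UMI had 184 Cxcl3 CPM titled Blood and 135 CPM titled Control. The split therefore also took out cells rich in Cxcl3, which bears on that ratio.

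In lymphocytes, which are not known as sources of these ligands, the matched shares were larger. T cell-like cells showed Cxcl2 at 122 CPM titled Blood and 64.3 CPM titled Control, of which 33.0% and 1.59% would be matched, and Cxcl3 at 20.7 and 3.04 CPM, of which 48.2% and 2.88% would be matched. NK cell-like cells showed Cxcl3 at 18.4 CPM titled Blood and 1.76 CPM titled Control, with 88.1% and 10.9% matched. RNA from macrophages can add to these levels too and was not estimated. S100a8 and S100a9 in T cell-like cells stood at 65.9 CPM titled Blood and 2.61 CPM titled Control, higher in the library with more neutrophil-like cells.

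Monocyte-like cells carried the highest Cxcl2 level after neutrophils, with 2665 CPM titled Blood and 2030.3 CPM titled Control, a ratio of 1.31 (1.29 to 1.34). Cxcl3 stood at 298 CPM titled Blood and 63.2 CPM titled Control (4.72, 4.30 to 5.19), and Cxcl1 at 16.0 and 5.22 CPM (3.07, 2.18 to 4.41). Of all genes tested in this class 0.764% were at least 1.5-fold higher and 0.889% at least 1.5-fold lower titled Blood, and 2 of 3 measured members, Cxcl1 and Cxcl3, were among the higher. Of the 143 Cxcl1 UMIs titled Blood 1 cell held 35. Most of the ligand sat in the cluster led by Ccl24, Ly6i and Chil3, with Cxcl2 at 3159 CPM titled Blood and 2313.5 CPM titled Control and Cxcl3 at 359 and 72.1 CPM. The cluster led by Hp, Chil3 and Ace had Cxcl2 at 737 and 676 CPM and Cxcl3 at 63.8 and 20.6 CPM. In the Ccl24-led cluster 8.53% of Cxcl3 titled Blood and 1.07% titled Control would be matched by neutrophil RNA, but 8 of its 955 cells titled Blood held 1021 of the 1433 S100a8 and S100a9 UMIs there. In the Hp-led cluster titled Control 3178 of 3205 S100a8 and S100a9 UMIs came from 2 cells, so no matched share is given for it.

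Cxcl1 had its highest level in mesenchymal-like cells in both libraries, while macrophage-like cells held more of its UMIs. Whether the mesenchymal-like cells were implanted tumour cells or host stroma was not tested. Mesenchymal-like cells, 1.87% of cells titled Blood and 2.91% titled Control, held 24.0% of Cxcl1 UMIs titled Blood and 44.9% titled Control, and macrophage-like cells 59.4% and 46.9%. The mesenchymal-like level was 94.0 CPM titled Blood (84.7 to 104) and 110.0 CPM titled Control (102 to 118), a ratio of 0.855 (0.752 to 0.972). Without the low-UMI copies of shared barcodes it was 93.6 and 110.4 CPM. Nearly all of these UMIs lay in the cluster led by Col3a1, Col1a1 and Col1a2, with 355 Cxcl1 UMIs in 54 cells titled Blood and 691 in 102 cells titled Control (104 and 123 CPM). Even there the ligand was uneven, as 6 cells held 68.2% of it titled Blood and 11 cells 50.7% titled Control. The intervals of the libraries overlap, and few cells set both levels.

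Among macrophages, Cxcl1 was highest in the Mmp12-led cluster, at 28.7 CPM titled Blood (384 UMIs) and 24.9 CPM titled Control (176 UMIs), which did not differ beyond counting error (1.15, 0.963 to 1.39). In the unnamed Retnla-led cluster it was lower titled Blood, at 7.53 CPM (21 UMIs) against 20.7 CPM titled Control (56 UMIs), a ratio of 0.364 (0.209 to 0.611), and 1 cell titled Control held 22 of those UMIs. In mesenchymal-like cells Cxcl2 stood at 96.3 CPM titled Blood and 60.0 CPM titled Control, and at 95.2 and 58.4 CPM without the low copies. These levels were below those of T cell-like cells, the type taken as background, at 122 CPM titled Blood and 64.3 CPM titled Control. Background Cxcl3 in T cell-like cells was 20.7 and 3.04 CPM, so neither ligand clearly exceeded background in mesenchymal-like cells. Cxcl3 had 84 UMIs there titled Blood (21.5 CPM) and 11 titled Control (1.74 CPM), of which 14.4% and 3.97% would be matched by neutrophil RNA, and without the low copies it stood at 20.98 and 1.28 CPM.

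Cxcl5 came from a narrow set of cells, with 376 UMIs titled Blood and 68 titled Control in all. Macrophage-like cells held 57.7% of them titled Blood and 36.8% titled Control. A cluster that no marker list named, led by Retnla, Ednrb, Lyve1, Cd163 and Ppbp, held nearly all of the UMIs of unnamed cells. Its 439 cells titled Blood had 128 Cxcl5 UMIs (45.9 CPM) and its 273 cells titled Control had 25 (9.23 CPM), a ratio of 4.97 (3.22 to 7.97). The Mmp12-led cluster had 179 UMIs titled Blood (13.4 CPM) and 20 titled Control (2.83 CPM), a ratio of 4.73 (2.97 to 7.94). The Retnla-led cluster had macrophage markers at 18388 summed CPM titled Blood and 20005 titled Control. Its platelet list stood at 11136 summed CPM titled Blood and 3225 titled Control over 6 genes, of which Gp9, Gp1bb and Tubb1 were at 0 in both libraries, and the part of platelet RNA was not tested. Single cells weighed heavily, as 1 cell of the Retnla-led cluster titled Blood held 41 of its 128 UMIs. In mesenchymal-like cells Cxcl5, known as an epithelial and stromal chemokine, stood at 3.83 CPM titled Blood (15 UMIs) and 1.89 CPM titled Control (12 UMIs), against 2.81 and 0.316 CPM in macrophage-like cells. The mesenchymal-like cells held 3.99% of Cxcl5 UMIs titled Blood and 17.6% titled Control. Without the low copies their levels were 3.67 and 1.91 CPM. Neutrophil-like cells held no Cxcl5, so neutrophil RNA adds none by this measure.

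Across 49 sums of a cluster in a library (30 or more cells each), the members' levels were correlated on the log2(CPM + 5) scale. These sums share libraries and depth, and the correlations are descriptions. Over all sums r was 0.84 for Cxcl2 and Cxcl3, 0.30 for Cxcl1 and Cxcl2, and -0.06 for Cxcl5 and Cxcr2. Over the 14 sums of macrophage-like clusters r was 0.79 for Cxcl2 and Cxcl3, 0.65 for Cxcl1 and Cxcl2, 0.76 for Cxcl1 and Cxcl5, 0.83 for Cxcl3 and Cxcl5, and 0.49 for Cxcl5 and Cxcr2. In these sums Cxcl5 stood at 3.43 CPM or less outside the Mmp12-led cluster titled Blood (13.4 CPM). Cxcr2 stood at 3.57 CPM or less in all of them. The values for Cxcl5 and Cxcr2 thus rest on few counts, and those for Cxcl5 largely on the Mmp12-led cluster. The genes most like Cxcl2 were Ets2 (r = 0.96), Clec4d, Nlrp3, Il1rn and Osm. Those most like Cxcl3 were Ero1l (r = 0.90), Fpr1, Egln3, Grina and Fbxl5. Ppbp (r = 0.73), Ednrb, Cd163, Ctdsp2 and Igf1 were most like Cxcl5, and Stfa2l1 (r = 0.96), Retnlg, Asprv1, Il1f9 and Nlrp12 most like Cxcr2. Over the 14 sums of macrophage-like clusters Cxcl3 was most like Ero1l (r = 0.97), Egln3, Il7r, Bnip3 and Clec4d. Ero1l is an oxidase of disulfide formation and Egln3 an oxygen-sensing prolyl hydroxylase. In the same 14 sums Cxcl2 was most like Got1 (r = 0.97), Nlrp3, Rgs1, Snx18 and Fosl2, and Cxcl1 most like Rcbtb2 (r = 0.91), Gabarapl1, Rassf3, Gclc and Mknk2.

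Genes listed as upstream cytokines and receptors, as NF-kB feedback and early targets or as RNA decay factors differed little in macrophage-like cells. These are RNA levels, and the activity of NF-kB or of RNA decay was not tested. Of all genes tested in this class 0.488% were at least 1.5-fold higher and 0.899% at least 1.5-fold lower titled Blood, so few genes of any list would pass. None of 18 measured NF-kB feedback and early target genes passed 1.5-fold (median log2 ratio 0.02, against 0.01 for all genes tested). Nfkbia, the inhibitor that NF-kB induces, stood at 209.6 CPM titled Blood and 175 CPM titled Control, and Ier3, an early response gene, at 484 and 417 CPM. None of 9 measured upstream cytokines and receptors passed (median 0.10), with Il1b at 685 CPM titled Blood and 797 CPM titled Control and Tnf at 28.7 and 23.6 CPM. None of 9 measured RNA decay factors passed (median 0.09), with Zfp36, which promotes decay of AU-rich transcripts, at 714 CPM titled Blood and 664 CPM titled Control. None of 15 measured CXCR2 signalling genes passed (median 0.06). Of 3 measured related ligands and receptors Ppbp did, at 32.2 CPM titled Blood and 6.48 CPM titled Control. That list also holds genes outside the glutamate-leucine-arginine type, such as Mif and Cxcr4. Of 12 other neutrophil attractants Ccl4 passed, at 194 and 309 CPM. In the Mmp12-led cluster 0.346% of all genes tested were higher and 0.465% lower. There Cxcl3 and Cxcl5 passed among members and Ppbp (163 and 28.5 CPM) among their relatives. Of 18 NF-kB genes 0 passed, where those shares would give few or none. Below that fold Nfkbiz (ratio 1.41, 1.27 to 1.56), Ptgs2 (1.29), Nfkbia (1.25), Birc3 (1.25), Nfkb1 (1.12) and Ier3 (1.11) were higher titled Blood. Ccrl2 (0.757) and Sod2 (0.899) were lower, all with intervals that exclude 1. The platelet list of the Mmp12-led cluster stood at 5384 summed CPM titled Blood and 3653 titled Control, with the defining platelet genes Gp9, Gp1bb and Tubb1 at 0 in both libraries. The neutrophil RNA list had 3 of 5 measured genes higher in macrophage-like cells, S100a8, S100a9 and Mmp8. Mmp8 had more UMIs in macrophage-like than in neutrophil-like cells, 1331 and 647 titled Blood and 308 and 27 titled Control. The Mmp12-led cluster held 1168 of the macrophage-like Mmp8 UMIs titled Blood and 173 titled Control. The source of Mmp8 was not tested.

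In monocyte-like cells Il1rap, the shared chain of the interleukin-1 receptor, stood at 23.3 CPM titled Blood and 10.8 CPM titled Control and passed 1.5-fold as 1 of 9 upstream genes. Ccrl2, an atypical receptor, stood at 266 CPM titled Blood and 408 CPM titled Control and was the 1 of 18 NF-kB genes to pass. No other gene of these lists, of the 9 decay factors, 15 CXCR2 signalling genes, 13 attractants or 3 related ligands and receptors measured passed in this class. Of the neutrophil RNA list 2 of 6 were lower, S100a8 and S100a9, whose UMIs titled Control came mostly from the 2 cells of the Hp-led cluster.

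In neutrophil-like cells, with 129 cells titled Control, 20.6% of all genes tested were at least 1.5-fold higher and 14.3% at least 1.5-fold lower titled Blood. On simulated counts 1316 of 6355 unchanged genes passed in this class from counting noise, so the counts below include such passes. Cxcl1 and Cxcl3 were the 2 of 4 measured members past that fold, Cxcl1 on 48 UMIs titled Blood and 2 titled Control, a ratio of 1.94 that did not differ from 1 beyond counting error (0.510 to 16.5). Of 18 NF-kB genes 7 were lower and 0 higher (median -0.53, against 0.05 for all genes tested), among them Icam1, an adhesion molecule (185 CPM titled Blood and 447 CPM titled Control), Tnfaip2 (1544 and 3242 CPM) and Ccrl2 (966 and 1975 CPM). Tnfaip2 is also a leading gene of the Cxcl10-led sub-cluster, whose share differs between the libraries. Relb, another of the 7, had 159 UMIs titled Blood and 20 titled Control, a ratio of 0.644 whose interval of 0.403 to 1.08 includes 1. Of 9 upstream genes 4 were lower and 0 higher (median -0.54), with Il1b at 10497 CPM titled Blood and 16085 CPM titled Control. Of 9 decay factors Zfp36l1 (662 and 258 CPM) and Khsrp (84 and 3 UMIs, a ratio of 2.27 whose interval of 0.750 to 11.2 includes 1) were past 1.5-fold higher and Zc3h12a, the RNase Regnase-1, lower (109.8 and 208 CPM). Of 16 CXCR2 signalling genes 1 was higher, the G protein regulator Rgs1 (552 and 227 CPM), and 3 were lower, Grk6 (19.6 and 69.3 CPM), Rac2 (319 and 620 CPM) and Vasp (468 and 735 CPM). Of 14 other attractant genes Fpr1 (250 and 139 CPM) and Lta4h (69 and 0 UMIs) were higher and C5ar1 lower (402 and 631 CPM). Among related ligands and receptors Mif was higher (2033 and 608 CPM), Cxcr4, a receptor that retains neutrophils in marrow, was lower (578 and 1001 CPM), and Cxcr1 stood at 38.4 and 38.5 CPM. In the neutrophil RNA list Wfdc21 and Mmp8 were higher and Retnlg and G0s2 lower, of 11 measured.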

How the data were processed

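Counts were deposited as whole UMI counts per gene and barcode. Per the submitters' processing notes the authors ran Cell Ranger 3.1.0 against mm10, and per the labels the libraries were 10x 3' v3. The members and gene lists were chosen with earlier results of these data known. The 5 members, 17 marker lists and 7 pathway lists were matched by symbol, and named genes followed a fixed rule: all members, pathway genes at 10 CPM or more that were highest or furthest from 0, and the 5 genes most like each member. The genes most like Cxcl1 over all clusters are not reported here.

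Barcodes passed with 300 or more genes, 500 or more UMIs and no more than 20% mitochondrial UMIs (11617 titled Blood, 8985 titled Control). Scrublet doublets were removed, 276 titled Blood (2.38%, 9.29% expected) and 162 titled Control (1.80%, 7.19% expected), so doublets remain. The 2 libraries were clustered together with scanpy 1.11.5 on 2000 variable genes, 30 components and 15 neighbours (Leiden, leidenalg 0.10.2, resolution 1), without 13 chemokine genes. The marker score limits (0.5, margin 0.35, 3 markers in 5% of cells) and the comparison of leading genes with cells outside the class were set after the data were seen. Unnamed clusters held 665 cells titled Blood and 644 titled Control.

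UMIs were summed per class and library. Intervals at 95% were exact Poisson for CPM, Clopper-Pearson for shares, and conditional binomial (exact) for ratios. Log2 ratios used a pseudocount of 5. The NF-kB consensus has 10 letters with ambiguity codes and was searched by that name. A gene was tested at 10 CPM in either library and 10 UMIs, and passing means 1.5-fold on that scale. Tested on simulated counts, this found 200 of 200 changed genes in macrophage-like cells with 0 of 7518 unchanged genes passing, and in neutrophil-like cells 191 of 200 with 1316 of 6355 unchanged genes passing from counting noise. No p-value was made from cells. Thinning drew 1000 UMIs per cell. Alternatives are given in the closing section.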

Additional observations from a re-analysis of the deposited data

Results flagged for a closer look

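Cxcl1 ran in different directions between classes, with intervals that exclude 1. Its ratio of titled Blood over titled Control was 0.855 in mesenchymal-like cells, against 1.28 in macrophage-like, 3.07 in monocyte-like, 5.84 in migratory DC-like and 7.28 in conventional DC-like cells. The last pair rests on 9 against 2 and on 13 against 2 UMIs. Cells with no class name had a Cxcl1 ratio of 0.425 (0.245 to 0.709), with 21 UMIs titled Blood and 60 titled Control.

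Cxcr2 had a ratio of 0.744 in neutrophil-like cells, against 2.80 in macrophage-like, 2.80 in monocyte-like and 17.9 in conventional DC-like cells, where there were 16 UMIs titled Blood and 1 titled Control. Within neutrophil sub-clusters it was 0.949 (Cxcl10-led) and 1.69 (Inhba-led), with intervals that include 1. The S100a8 plus S100a9 ratio was 5.80 in macrophage-like, 0.523 in monocyte-like and 43.3 in conventional DC-like cells. Less the part matched by neutrophil RNA, Cxcr2 stood at 0.625 CPM titled Blood and 0.430 titled Control in macrophage-like cells. In conventional DC-like cells it stood at 3.69 and 0.285 CPM. Among monocyte-like cells, those with an S100a8 or S100a9 UMI held 51 of 71 Cxcr2 UMIs titled Blood and 17 of 24 titled Control. Monocyte-like cells without such a UMI had Cxcr2 at 3.02 CPM titled Blood and 0.904 CPM titled Control. Differences between classes were not tested, as there was 1 library per title.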

How the results depend on the processing

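Log2 ratios of titled Blood over titled Control are given in the order of the settings named. No paired analysis was possible because there was 1 library per title and the labels give no replicate numbers. Cxcl3 in macrophage-like cells was 1.82, and stayed above 0 in every setting run: 1.70 with members allowed in clustering, 1.32 with doublets kept, 1.54 at resolution 2, 0.69 with each library clustered alone, 1.92 with a pseudocount of 1, 2.28 with thinned cells, 2.39 with each cell's own CPM averaged, 1.14 with equal cluster weights, 1.94 without cells with S100a8 or S100a9 UMIs and 1.88 with monocyte-like cells joined. In the first 3 of these a cluster led by Mmp12, Hmox1, Pf4 and Ppbp, and in the fourth 306 cells titled Blood led by Cxcl3 and Ppbp, missed the limits for a name and left the class. Cxcl2 there was 0.26, and 0.15, 0.064, 0.13 and 0.13 in these settings, 0.51 thinned, 0.51 by cell average, 0.13 with equal weights, 0.28 without S100 UMIs and 0.30 with monocyte-like cells. Cxcl1 there was 0.24, and 0.024 with doublets, 0.034 at resolution 2, 0.068 clustered alone, 0.64 thinned, 0.58 by cell average and 0.090 with equal weights. In neutrophil-like cells Cxcl2 was 0.41, and 0.092 with doublets, 0.51 thinned and 0.19 with equal sub-cluster weights. Cxcl3 was 1.93, and 1.64 with doublets, 2.14 thinned and 2.13 by cell average. Cxcr2 was -0.42, and -0.73 with doublets, and turned to 0.031 with equal sub-cluster weights. Causes of the other moves were not tested. The 2 shares pooled over both libraries, Cxcl5 in mesenchymal-like cells (6.08%, with 3.99% titled Blood and 17.6% titled Control) and Cxcr2 in neutrophil-like cells (89.9%, with 91.4% and 78.2%), stayed within their counting intervals, and leaving out low-UMI copies of shared barcodes moved no ratio beyond its interval. Joining monocytes, sub-cluster weights and low copies were chosen after seeing the data. Without a filter on low values 2 in place of 1 related ligands and receptors were higher and 2 in place of 1 decay factors and 6 in place of 4 upstream genes lower in neutrophil-like cells. Depth limits Cxcl1, Cxcl5 and all values in the 129 neutrophil-like cells titled Control.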
